A study of Mus musculus with 2 samples.

Results

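The 40S subunit is the part of the ribosome that binds the mRNA and scans it for a start codon. Its RNA core is covered by proteins that are each made from a gene of their own, and all of them are needed at the same count in every subunit. The mRNAs of these genes belong to the group whose translation is set together through a run of pyrimidines at the 5′ end (a TOP motif). Embryonic stem (ES) cells carry high levels of them. LIN28A is an RNA-binding protein of pluripotent cells, and the study asked what its loss does to nucleolar and ribosomal functions.

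The genes described here encode the proteins of the small ribosomal subunit. They were taken by symbol, as Rps followed by a number (with the letters and digits that mark paralogs), *Rpsa* and *Fau*, without rows named as pseudogenes and without the Rps6k kinases. Of 54146 rows in the files 37 met the rule, among 36787 rows with at least 1 UMI (unique molecular identifier, the tag that marks 1 captured mRNA) in the kept cells. In GENCODE M21, 33 of the 37 are protein coding, and *Rps3a2*, *Rps3a3*, *Rps12l1* and *Rps4l* are annotated as processed pseudogenes. Every member had at least 3404 UMIs in each library, so none was lost to the minimum of 200 UMIs used below.

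Both libraries were inDrop single-cell RNA-seq of mouse ES cells derived from the inner cell mass, 1 library wild-type and labelled untreated and 1 with *Lin28a* knocked out. Both kinds of cells grew for 2 days in LIF and 2i (2 kinase inhibitors) on gelatin with a layer of mouse embryonic fibroblast (MEF) feeder cells, which the libraries can therefore hold. For these libraries the methods name 1 wild-type and 1 knockout line, which elsewhere in the study are a wild-type clone that had been transfected and a CRISPR/Cas9 knockout clone, so a difference between the libraries can belong to a clone or to a library as well as to the genotype. With 1 library per genotype there is no test, and every interval below is a 95% interval that covers counting error only.

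Cells with at least 500 UMIs and at most 20% of UMIs on mitochondrial genes were kept, 1856 of 4329 barcodes in wild-type (11639256 UMIs, median 6140 per cell) and 1622 of 6060 in the knockout (9340855 UMIs, median 5064). Barcodes are numbered in each file, so cells shared between the libraries could not be counted. *Lin28a* had 107 CPM (UMIs per 1000000 UMIs of the library) in wild-type and 36.6 CPM in the knockout, a ratio of 0.343 (0.303 to 0.387). These 3′ counts do not read the second exon, where the guide cut, so they show a lower level and not the edit itself. All 10 ES markers were found in both libraries, at a summed 4717 and 4861 CPM. All 12 feeder markers were found too, at 877 CPM in wild-type and 305 CPM in the knockout.

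The 5′ ends are shown because the shared pyrimidine run is the feature by which these mRNAs are known. RefSeq promoters of GRCm38.p6 were available for 25 of the 37 members. Each line gives 20 bases before and 20 bases from the annotated start, 5′ to 3′, with the longest unbroken C and T run whose first letter lies within 5 bases of the start in capitals. In the first 4 members that run has at least 6 letters and opens with C. In the last 4 it has fewer than 6 letters. All 8 are described below, and for members with several annotated starts the first in the table is shown.
*Rps6*, chr4:86857348-86857387, minus strand: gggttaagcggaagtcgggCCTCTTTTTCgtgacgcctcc
*Rps18*, chr17:33955646-33955685, minus strand: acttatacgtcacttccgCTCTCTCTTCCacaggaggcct
*Rps21*, chr2:180257359-180257398, plus strand: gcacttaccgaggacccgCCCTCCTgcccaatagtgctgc
*Rps27*, chr3:90213629-90213668, minus strand: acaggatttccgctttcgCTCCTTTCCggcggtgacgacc
*Rps13*, chr7:116334171-116334210, minus strand: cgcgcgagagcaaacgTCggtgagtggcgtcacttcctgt
*Rpsa*, chr9:120127746-120127785, plus strand: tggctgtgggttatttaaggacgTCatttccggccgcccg
*Rps27l*, chr9:66946066-66946105, plus strand: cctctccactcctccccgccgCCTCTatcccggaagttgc
*Rps7*, chr12:28635934-28635973, minus strand: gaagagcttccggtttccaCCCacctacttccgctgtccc
The longest run had at least 6 letters and opened with C in 8 of the 25 members (32.0%), in 8 of 41 large-subunit genes (19.5%) and in 2175 of 27025 genes of the whole table (8.05%). *Rps15a*, *Rps24* and *Rps26* have a longest run of 9 letters that opens with T. With either letter first, a run of at least 6 was present in 11 of the 25 members (44.0%), 13 of the large-subunit genes (31.7%) and 3812 of all genes (14.1%). Runs that begin outside this window were not counted, such as that of *Rps9* just before it and that of *Rps12* after it. Only the given strand was searched, and a member counted without such a run has none whose first letter lies within 5 bases of an annotated start.

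Levels of the members ranged from 311 to 2474 CPM in wild-type and from 364 to 2641 CPM in the knockout. The 5 highest by CPM were *Rps18*, *Rps24*, *Rps14*, *Rps23* and *Rps28*. *Rps24*, a body protein mutated in some Diamond-Blackfan anaemia families, had 2474 CPM in wild-type (2445 to 2502) and 2445 in the knockout (2413 to 2477). *Rps18*, at the top of the head, had 2415 CPM (2387 to 2443) and 2641 (2608 to 2674). *Rps14*, of the platform, had 2259 CPM (2231 to 2286) and 2507 (2475 to 2539). The wild-type intervals of *Rps24* and *Rps18* do not overlap, and their order was the reverse in the knockout. *Rps23*, which lies at the decoding site, had 2091 CPM (2065 to 2118) and 2367 (2336 to 2399). *Rps28*, near the mRNA exit, had 1888 CPM (1863 to 1913) and 2266 (2235 to 2296).

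The 5 lowest by CPM were *Rps12l1*, *Rps13*, *Rps27l*, *Rps2* and *Rps4l*. *Rps12l1*, whose coding sequence is identical to that of *Rps12*, had 311 CPM (301 to 322) and 364 (352 to 377). *Rps13*, of the body, had 323 CPM (313 to 333) and 443 (429 to 456). *Rps27l*, a paralog of *Rps27* known as a p53 target, had 398 CPM (387 to 410) and 383 (371 to 396). *Rps2*, which lies at the mRNA entry, had 468 CPM (455 to 480) and 514 (500 to 529). *Rps4l*, a retrocopy of *Rps4x*, had 561 CPM (548 to 575) and 577 (562 to 592). *Rps2* and *Rps13* encode core proteins, yet their rows lay below those of partners that the ribosome needs in the same number. The intervals of neighbours in this order did not overlap in wild-type, except between *Rps12l1* and *Rps13*.

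**Figure D1:**
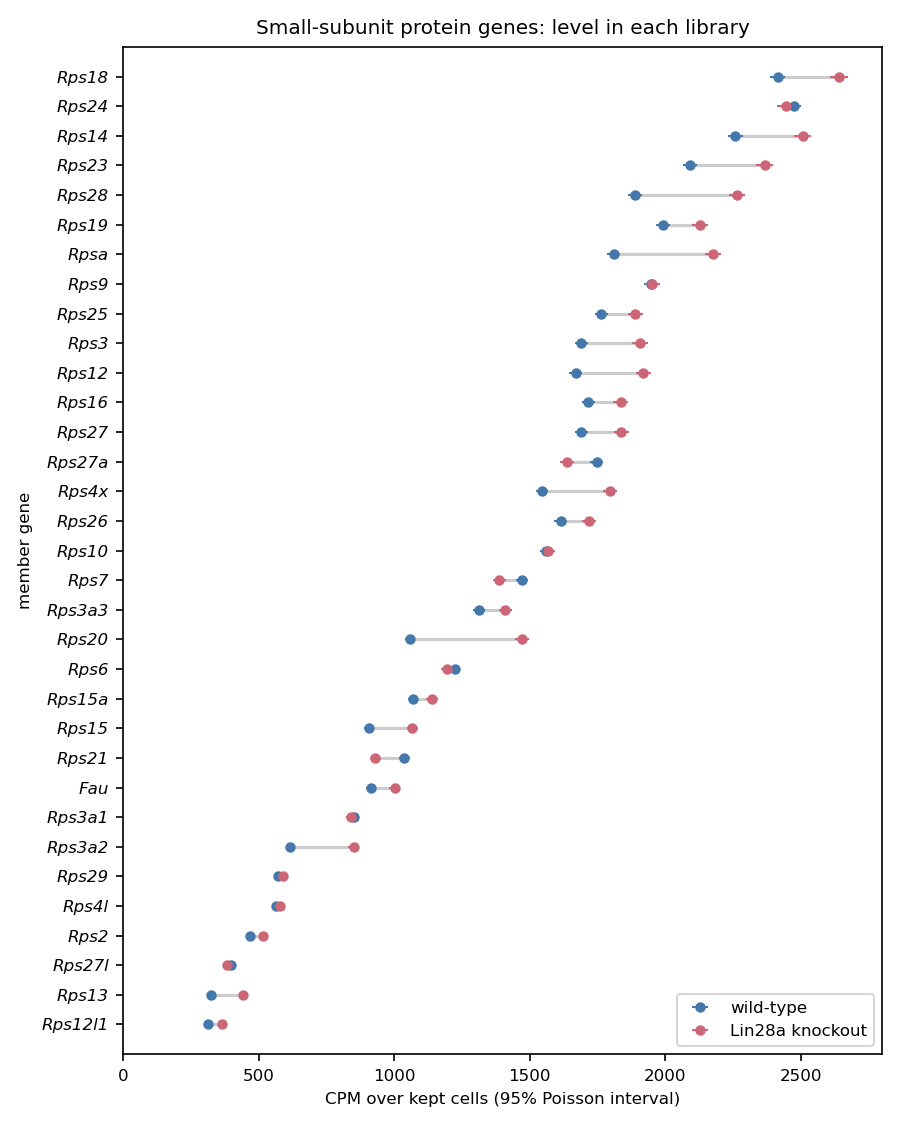
CPM over the kept cells (x axis) of 33 of the 37 members (y axis, sorted by the mean of both libraries), with 1 point per library and bars for the 95% Poisson interval. Levels run from 311 CPM for *Rps12l1* in wild-type to 2641 CPM for *Rps18* in the knockout, and the points of a gene lie close to each other next to the spread over genes.

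A UMI of a 3′ tag marks 1 captured mRNA whatever its length, so CPM is the measure of level here. Division by length does not correct it, is given as a description only, and yields an order that depends on the annotated lengths. Divided by the length of the annotated main transcript, the highest member was *Rps28*, annotated at 271 bases. It had 6967 CPM per kb in wild-type and 8360 in the knockout, followed by *Rps24* (5285 and 5224) and *Rps27* (4900 and 5328). The lowest was *Rps20* with 286 and 397 CPM per kb. Its main transcript is annotated at 3706 bases for a coding sequence of 357 bases, so its place in this order rests on that annotation. *Rps2* (469 and 515 CPM per kb) came next, and *Rps13* (548 and 751 CPM per kb) followed in wild-type. In the knockout *Rps4l* (731 CPM per kb) lay below *Rps13*.

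Near-identical copies held almost as many UMIs as the coding members. Small-subunit genes have left many processed pseudogenes in the mouse genome, and the files list these as rows of their own. Annotated transcripts that matched the coding sequence of a coding member over at least 70% of its length with at least 90% identity numbered 307, spread over 32 of the 33 coding members, and 302 of them had UMIs. They held 483858 UMIs in wild-type and 459176 in the knockout (4.16% and 4.92% of all UMIs). The 33 coding members and the copies together made up 8.89% of UMIs in wild-type and 10.1% in the knockout. Of the copies, 3 are members themselves, *Rps12l1*, *Rps3a2* and *Rps3a3*. Some other copies are annotated as protein coding, such as *Rps27rt* (21555 UMIs in wild-type), a copy of *Rps27*, and *Rps12-ps3* (18236), a copy of *Rps12*.

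For *Rps2* (chromosome 17, 24718116 to 24721929, plus strand) the copies held nearly all of the signal. The row of the gene had 5442 UMIs in wild-type and 4805 in the knockout, while its 47 copies had 119210 and 117728, which is 95.6% (95.5% to 95.7%) and 96.1% (96.0% to 96.2%) of the family. *Rps2-ps10* alone, whose match is 99.4% identical, had 36499 and 33815 UMIs. Counted as a family, *Rps2* went from the fourth lowest member to the highest of the 33 coding members. For *Rps13* the copies held 81.6% of the family in wild-type and 79.9% in the knockout, for *Rps3a1* 74.9% and 78.0%, and for *Rps6*, the substrate of the S6 kinases, 70.8% and 71.4%. In all, copies held more than 50% of the wild-type family for 9 members. Levels and ratios of these rows are therefore uncertain, since the counting could split reads of 1 gene over several rows. How many of these UMIs come from the gene and how many from transcribed copies was not tested.

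**Figure D2:**
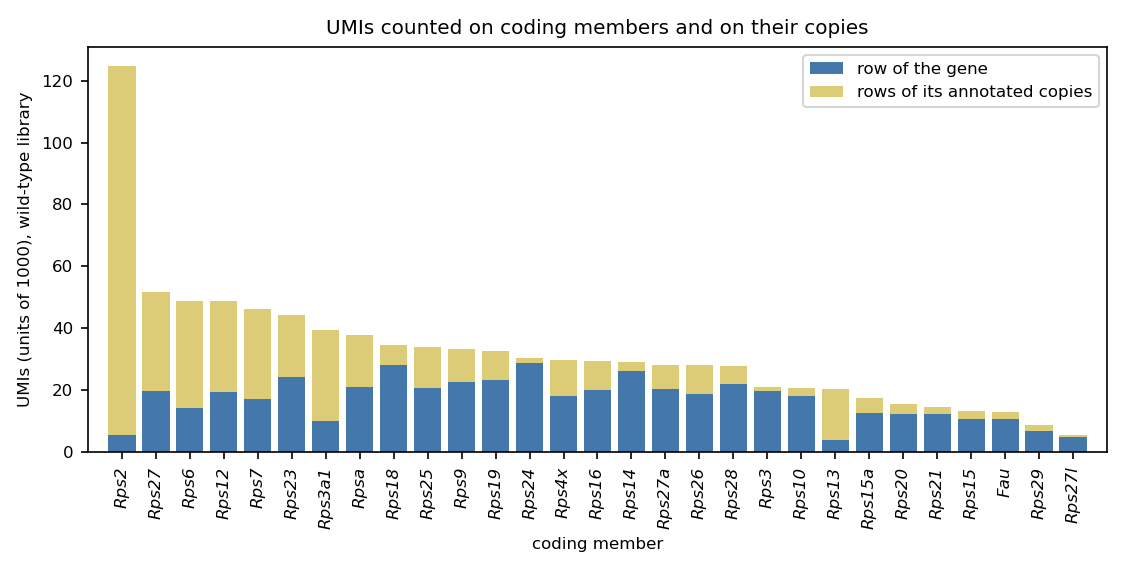
UMIs in units of 1000 in the wild-type library (y axis) for 29 of the 33 coding members (x axis, sorted by the sum), split into the row of the gene and the rows of its annotated copies. *Rps2* stands highest with 5442 UMIs on the gene and 119210 on 47 copies.

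The members together took up 5.01% of UMIs in wild-type (4.996% to 5.021%) and 5.47% in the knockout (5.46% to 5.49%). The ratio of knockout to wild-type was 1.092 (1.088 to 1.096). The 55 large-subunit genes took up 5.98% and 6.50% of UMIs, a ratio of 1.087 (1.083 to 1.090). There were 0.837 small-subunit UMIs per large-subunit UMI in wild-type and 0.841 in the knockout, so the balance of the subunits at the mRNA level differed by a factor of 1.005 (0.9998 to 1.01, normal interval on the log scale). With the copies added, the small-subunit ratio was 1.13.

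The size and the direction of this difference changed with the depth of the cell. In cells of 500 to 1000 UMIs the share was 3.47% in wild-type (147 cells) and 4.49% in the knockout (311 cells), a ratio of 1.294 (1.245 to 1.345). In cells of 1000 to 2000 UMIs it was lower in the knockout, 3.88% against 3.18%, a ratio of 0.819 (0.788 to 0.852). Cells of 2000 to 5000 UMIs had ratios of 1.20 (1.19 to 1.21), and those of 5000 to 10000 UMIs 1.20 (1.19 to 1.20). Cells of 10000 UMIs and more had 5.16% in wild-type and 5.09% in the knockout, a ratio of 0.986 (0.979 to 0.993). The knockout library had 201 cells in the 1000 to 2000 range against 67 in wild-type, and mitochondrial genes took 4.67% of UMIs there against 2.39%. The part of these values in the difference was not tested. Over cells rather than UMIs, the median share was 4.49% in wild-type (quartiles 3.83% and 5.55%) and 5.04% in the knockout (3.89% and 6.86%), and the lower end reached further down in the knockout, with 5% of cells below 1.09% against 2.40%.

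**Figure D3:**
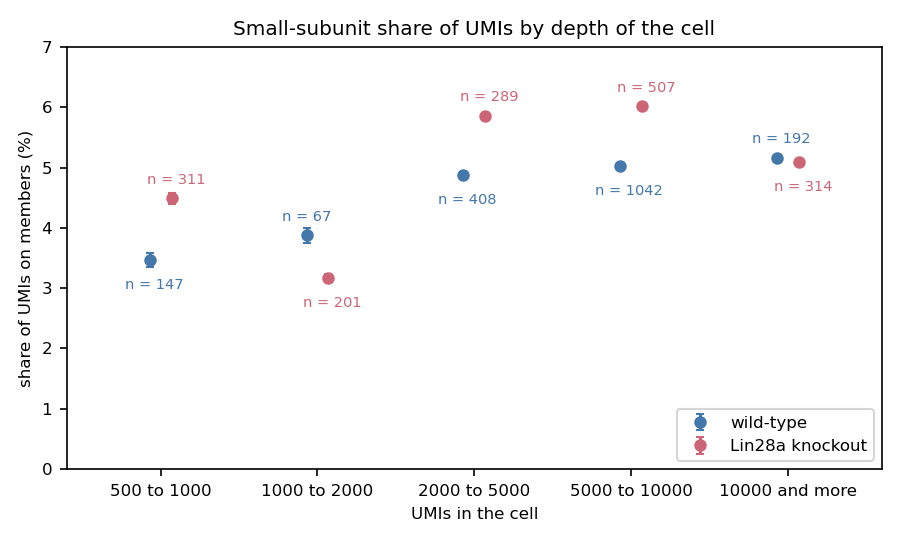
Share of UMIs on the 37 members in percent (y axis) in cells grouped by their number of UMIs (x axis), for each library, with 95% binomial intervals and the number of cells. The knockout lies above wild-type in 3 of the 5 groups and below it from 1000 to 2000 UMIs (3.18% against 3.88%) and from 10000 UMIs on (5.09% against 5.16%).

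The members differed in their ratios by more than their intervals. The ratio of knockout to wild-type ranged from 0.896 to 1.39 with a median of 1.09, beside a median of 1.01 over the 9835 genes with at least 200 UMIs. The knockout was higher by at least 25% for 4 of 37 members, *Rps20*, *Rps3a2* and *Rps13* among them (10.8%, against 19.7% of all these genes). A ratio of at most 0.8 was found for 0 of 37, against 20.8% of all genes, and a ratio of at least 1.5 for 0 of 37, against 6.49%. Intervals, which shrink with depth, lay above 1 for 26 members and below 1 for 3. Among the 565 genes with at least 6000 UMIs, a limit that all members pass, 48.5% lay above 1 and 40.7% below.

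*Rps20*, of the head, stood highest above the module. The gene lies on the minus strand of chromosome 4, 3831334 to 3835665 (GRCm38, as all positions here), and has 4 exons. It had 1058 CPM in wild-type and 1471 in the knockout, a ratio of 1.39 (1.36 to 1.42), which is 0.35 above the log2 ratio of the summed module. *Rps3a2*, 99.5% identical to *Rps3a1* in the coding sequence, had 616 and 849 CPM, a ratio of 1.38 (1.34 to 1.42). *Rps13* had a ratio of 1.37 (1.31 to 1.43). *Rpsa*, also known as the laminin receptor, had 1810 and 2175 CPM, a ratio of 1.20 (1.18 to 1.22).

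*Rps21*, one of the smallest proteins of the subunit, was furthest below the module. The gene lies on the plus strand of chromosome 2, 180257377 to 180258445. It had 1037 CPM in wild-type (1019 to 1056) and 929 in the knockout (910 to 949), a ratio of 0.896 (0.872 to 0.921), or 0.29 below the module on the log2 scale. *Rps27a*, made as a fusion to ubiquitin, had 1748 and 1638 CPM, a ratio of 0.937 (0.918 to 0.957). *Rps7*, known to bind MDM2, had 1472 and 1387 CPM, a ratio of 0.942 (0.921 to 0.964). *Rps27l* had a ratio of 0.962 (0.921 to 1.005), and *Rps6*, with 1224 and 1196 CPM, 0.977 (0.953 to 1.002), and both intervals include 1. Only *Rps21*, *Rps27a* and *Rps7* had intervals wholly below 1.

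**Figure D4:**
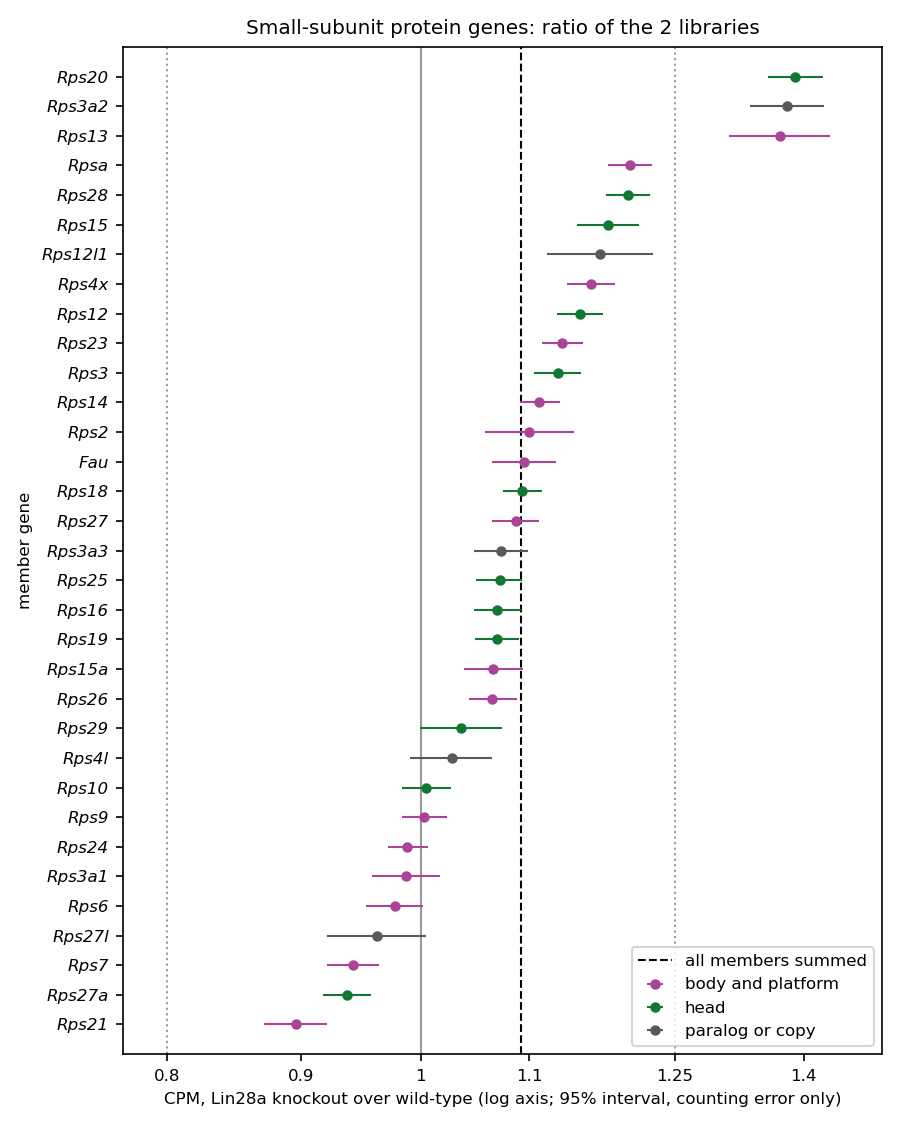
Ratio of CPM, knockout over wild-type (x axis, log scale), for 33 of the 37 members (y axis, sorted), with bars for the 95% interval and colours for the place of the protein in the subunit. The dashed line is the summed module at 1.09, dotted lines mark 20% lower and 25% higher, and the ratios run from 0.896 for *Rps21* to 1.39 for *Rps20*.

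Some members lay on the same side of the module's ratio in all 5 depth groups, though some of the gaps were within counting error. *Rps24* was at 0.9925 of the module's ratio in cells of 10000 UMIs and more. *Rps28* was at 1.008 of it in cells of 1000 to 2000 UMIs. *Rps13*, *Rps15*, *Rps28*, *Rps3a2*, *Rps4x* and *Rpsa* were among the members with ratios above that of the module in all 5 depth groups. *Rps24*, *Rps27a*, *Rps3a1*, *Rps6*, *Rps7* and *Rps9* were among those below it in all 5. *Rps20* lay above in 4 and *Rps21* below in 4. The value itself still moved with depth. The ratio of *Rps13* ran from 1.08 in the deepest cells to 1.74 in cells of 2000 to 5000 UMIs. In cells of 5000 to 10000 UMIs alone 13 of 37 members were higher by at least 25% (35.1%), against 21.8% of the 7230 genes with at least 200 UMIs there.

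Adding the copies changed the ratios of some members and left others as they were. *Rps21* (0.898 as a family), *Rps20* (1.38) and *Rps7* (0.957) kept theirs. *Rps3a1* went from 0.987 to 1.12 (1.11 to 1.14), since its copies, which include *Rps3a2* and *Rps3a3*, had a ratio of 1.17. *Rps13* went from 1.37 to 1.26, *Rpsa* from 1.20 to 1.35, *Rps4x* from 1.16 to 1.26, *Rps19* from 1.07 to 1.19 and *Rps2* from 1.1 to 1.225. *Rps6*, with 14 copies, was at 0.998. By family, 5 of 33 coding members were higher by at least 25% and 0 were at 0.8 or less, and ratios ran from 0.898 to 1.38. Of all genes tested, 19.7% and 20.8% were past these limits.

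By place in the subunit, the 14 head genes summed to a ratio of 1.109 (1.102 to 1.115) and 13 of them lay above 1, with *Rps27a* as the exception, against 52.3% of the 9835 genes. The 18 genes of the body and platform summed to 1.07 (1.07 to 1.08), with 13 above 1. The medians, 1.08 and 1.09, gave the opposite order, so the groups were not told apart. A set list of 10 genes mutated in Diamond-Blackfan anaemia, a failure of red cell production, had a median ratio of 1.06 and a highest of 1.20 (*Rps28*). In it 0 of 10 were higher by 25%, against 19.7% of all genes. The list was not checked to be complete, and *Rps20*, with a ratio of 1.39, is not on it. The ubiquitin-like fusions *Rps27a* and *Fau* were at 0.937 and 1.095 (1.065 to 1.126), and their intervals do not overlap. The 11 members with a pyrimidine run of at least 6, with either letter first, had a median ratio of 1.07 (range 0.896 to 1.13) and the 14 without one 1.1 (0.942 to 1.37). Where the longest run had to open with C, the medians were 1.09 for 8 members and 1.07 for the other 17, the opposite order, so the groups were not told apart. The 10 members with an annotated small nucleolar RNA inside the gene, on the same strand, summed to 1.16 (1.15 to 1.17). The 23 other coding members summed to 1.06 (1.06 to 1.07). Their medians were 1.139 and 1.066. The 10 ran from 0.987 (*Rps3a1*) to 1.39 (*Rps20*), and the ranges of these groups overlapped. That split was chosen from the annotation after the ratios were seen.

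The paralogs had ratios of their own. *Rps27* had 1690 CPM in wild-type and 1838 in the knockout (ratio 1.09, 1.07 to 1.11), and *Rps27l* the lower level and ratio given above. In cells of 500 to 1000 UMIs *Rps27l* had 59.6 and 217 CPM, on few UMIs, a ratio of 3.64 (1.55 to 10.4). *Rps4x*, on the X chromosome, had 1546 and 1796 CPM (1.16, 1.14 to 1.19), and its retrocopy *Rps4l* had a ratio of 1.03 (0.991 to 1.07). *Rps3a3*, 99.0% identical to *Rps3a1*, had 1313 and 1409 CPM (1.073, 1.048 to 1.099), more than the 853 and 842 CPM of *Rps3a1* itself (0.987, 0.958 to 1.02).

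Genes that build or use the 40S subunit lay on both sides of 1. Of all genes tested, as above, 19.7% were higher by at least 25% and 20.8% were at 0.8 or less. Of 49 measured assembly factors, 6 were higher by at least 25% and 12 at 0.8 or less, with a median of 0.956. *Pno1*, which binds the 3′ end of immature 18S rRNA, had 138 CPM in wild-type and 88.3 in the knockout (0.639, 0.586 to 0.695). *Bysl*, another late factor, had 75.7 and 103 CPM (1.35, 1.23 to 1.49). Of 20 factors that bind the 40S subunit, 2 were higher by at least 25% and 9 at 0.8 or less, with a median of 0.942. *Rack1*, a stable protein of the head that the symbol rule leaves out, had 1959 and 2152 CPM, a ratio of 1.098 (1.078 to 1.120) close to that of the members. Of 54 large-subunit genes with at least 200 UMIs, 6 were higher by at least 25% and 0 at 0.8 or less, with a median of 1.09.

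Within each library most members were higher in the cells that were rich in large-subunit mRNA. Cells with at least 2000 UMIs (1642 in wild-type and 1110 in the knockout) were ordered by their share of UMIs on large-subunit genes, which uses no member, and the highest 25% of cells were compared with the lowest 25%. The small-subunit share was 3.59% in the lowest and 7.36% in the highest 25% of wild-type cells, a factor of 2.05 (2.03 to 2.07). In the knockout it was 3.85% and 8.38%, a factor of 2.18 (2.16 to 2.20). Median depth was similar in wild-type, 6396 and 6547 UMIs, and differed in the knockout, 8054 and 6370 UMIs. Mitochondrial genes took 1.955% and 0.481% of UMIs in these wild-type cells and 2.84% and 0.301% in the knockout. Feeder-like cells, defined below by collagen mRNA, numbered 26 in the lowest and 3 in the highest 25% of wild-type cells, and 5 and 4 in the knockout. The part of these in the module's factor was not tested. The cuts are places on a continuous range, and 784 wild-type and 400 knockout cells lay within 0.5 percentage points of one.

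The factor between these cells exceeded 1 for 37 of 37 members in wild-type, against 45.5% of 4850 genes with at least 200 UMIs in them, and for 36 in the knockout, against 47.3% of 3677. These shares leave out the large-subunit genes, which ordered the cells. It was largest for *Rps26*, at the mRNA exit, with 994 CPM in the lowest and 2786 in the highest wild-type cells (2.81, 2.69 to 2.93) and a factor of 3.0 (2.86 to 3.15) in the knockout. *Rps29* (2.72 and 2.92) was close to it. At the other end, *Rps24* differed by 1.16 (1.12 to 1.20) in wild-type and 1.28 (1.23 to 1.33) in the knockout, *Rps27a* by 1.35 and 1.31, *Rps15a* by 1.41 and 1.52, and *Rps7* by 1.62 and 1.39. The median over members was 2.20 and 2.24, and over those genes 0.899 and 0.918. With *Rps27l* these 4 had the 5 lowest factors in the knockout, and with *Rps27l* and *Rps2* the 6 lowest in wild-type. *Rps2* was at 1.318 (1.225 to 1.417) in wild-type and 2.40 (2.21 to 2.62) in the knockout. Without the feeder-like cells, a setting chosen after the data were seen, it was at 1.916 (1.756 to 2.092) and 2.25 (2.06 to 2.46), and the same 5 other members had the 5 lowest factors in each library. *Rps27l* had 365 and 427 CPM in wild-type (1.17, 1.08 to 1.27) and 364 and 322 CPM in the knockout (0.884, 0.795 to 0.983). It was the 1 member that was lower in the cells richest in ribosomal protein mRNA, and in the knockout only. Pearson r over cells between the share of *Rps27l* and that of the other 36 members was 0.0627 in wild-type and -0.00898 in the knockout, at 2.81 UMIs of the gene per cell in wild-type. For *Rps26* it was 0.783 and 0.802. These r values are over cells of 1 library that share depth and composition, and sparse counts lower them. Over the 37 members the factors of the libraries went together (Spearman rho 0.764), as did the r values (0.910). The 11 members with a pyrimidine run of at least 6, with either letter first, and the 14 without one had median factors of 2.12 and 2.18 in wild-type and 2.27 and 2.23 in the knockout. Where the longest run had to open with C, the medians were 2.19 for 8 members and 2.15 for the other 17 in wild-type. In the knockout they were 2.34 and 2.22. The ranges of the groups overlapped, so they were not told apart.

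The rows of a few members depended on the kind of cell. Cells with at least 0.5% of UMIs on *Col1a1*, *Col1a2* and *Col3a1* were taken as feeder fibroblast-like, 41 in wild-type and 21 in the knockout. These 3 genes are among the 12 feeder markers. The other 9 markers, which did not choose the cells, summed to 4332 CPM in the feeder-like and 27.5 CPM in the other wild-type cells, and to 2042 and 35.1 CPM in the knockout. The 10 ES markers summed to 0.2005 times their level in the other cells in wild-type and 0.2006 times in the knockout. Whether these barcodes also held RNA of ES cells was not tested. The module took up 4.13% of UMIs in the wild-type feeder-like cells and 5.04% in the other cells (0.818, 0.806 to 0.831), and 4.97% against 5.48% in the knockout (0.908, 0.884 to 0.932). The comparison was chosen after an uneven spread of *Rps2* over cells was seen, so the values of *Rps2* and of the members named beside it are a description.

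The row of *Rps2* had 2811 CPM in feeder-like cells and 383 in the others in wild-type, a factor of 7.35 (6.88 to 7.84). In the knockout it had 3459 and 480 CPM, a factor of 7.21 (6.47 to 8.01). With its copies added, the *Rps2* family was lower in feeder-like cells. The family factor was 0.471 (0.451 to 0.492) in wild-type and 0.507 (0.471 to 0.545) in the knockout. All 25 wild-type cells with at least 20 UMIs of *Rps2*, and 9 of 13 in the knockout, were feeder-like, and the 41 feeder-like cells held 21.0% of its wild-type UMIs against 7.83% in the 21 of the knockout. All 14 of its copies with at least 2000 UMIs over both libraries were lower in feeder-like cells, in each library, by different factors. Feeder-like cells held 406949 of 11639256 UMIs in wild-type and 108700 of 9340855 in the knockout. Copies thus passed this limit mainly through the other cells, and the limit favours copies that are high there. The share of all genes lower in feeder-like cells is not given, so the count is a description. The same holds for the *Rps13* copies below. *Rps2-ps10* was at 0.5515 (0.511 to 0.594) in wild-type and 0.602 (0.528 to 0.684) in the knockout, and the other 13 were below 0.25 in both. *Rps2-ps13* had 118 CPM in feeder-like and 1905 in other wild-type cells (0.0619, 0.0456 to 0.0821), and *Rps2-ps6* 59.0 and 914 CPM (0.0646, 0.0413 to 0.0961). The row of the gene held 54.7% (52.6% to 56.9%) of the family in wild-type feeder-like cells and 3.51% in the others, and 51.7% (48.0% to 55.4%) and 3.64% in the knockout. The ratio of the libraries for the *Rps2* row was 1.1 with these cells and 1.254 without them. It turned direction with depth, from 1.53 (1.37 to 1.70) in cells of 2000 to 5000 UMIs and 1.41 (1.34 to 1.495) in those of 5000 to 10000 to 0.621 (0.580 to 0.665) in cells of 10000 UMIs and more. That last group held 18 feeder-like cells in wild-type and 3 in the knockout, and without them its ratio was 1.081 (0.993 to 1.178). What makes the split differ between the cells was not tested.

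*Rps13* also held more of its family in feeder-like cells, with the gene at 48.1% of its family in feeder-like and 17.6% in other wild-type cells, and 47.0% and 19.9% in the knockout. For *Rps3a1* the gene held 45.3% and 24.7% in wild-type and 40.1% and 21.8% in the knockout. Of the 4 *Rps13* copies with at least 2000 UMIs, *Rps13-ps1* (0.295, 0.241 to 0.357) and *Rps13-ps4* (0.611, 0.484 to 0.762) were lower in wild-type feeder-like cells, and *Rps13-ps2* (1.08, 0.808 to 1.42) and *Rps13-ps5* (1.04, 0.696 to 1.495) had intervals across 1. The 4 processed copies among the members differed from each other. *Rps3a3* had 224 CPM in feeder-like and 1353 in other wild-type cells (0.165, 0.133 to 0.203), and a factor of 0.272 (0.196 to 0.368) in the knockout. *Rps4l* had 81.1 and 579 CPM (0.140, 0.0964 to 0.197), and a factor of 0.237 (0.133 to 0.391). The summed ES markers had factors of 0.2005 in wild-type and 0.2006 in the knockout. *Rps3a2*, in contrast, had a factor of 0.699 in wild-type and 0.942 in the knockout, and *Rps12l1* one of 0.631 and 0.730. The row of *Rps3a1*, of which *Rps3a3* is a copy, had 1.087 (0.978 to 1.205) and 1.563 (1.314 to 1.845). Whether reads were split between these rows differently by kind of cell was not tested. Among the other members the factor ran from 0.578 (*Rps15*) to 1.17 (*Rps27l*) in wild-type, and from 0.528 (*Rps7*) to 1.205 (*Rps28*) in the knockout. *Rps27l* was at 0.742 (0.503 to 1.055) in the knockout. *Rps28* had intervals above 1 in both libraries, with 1.149 (1.072 to 1.229) in wild-type.

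**Figure D5:**
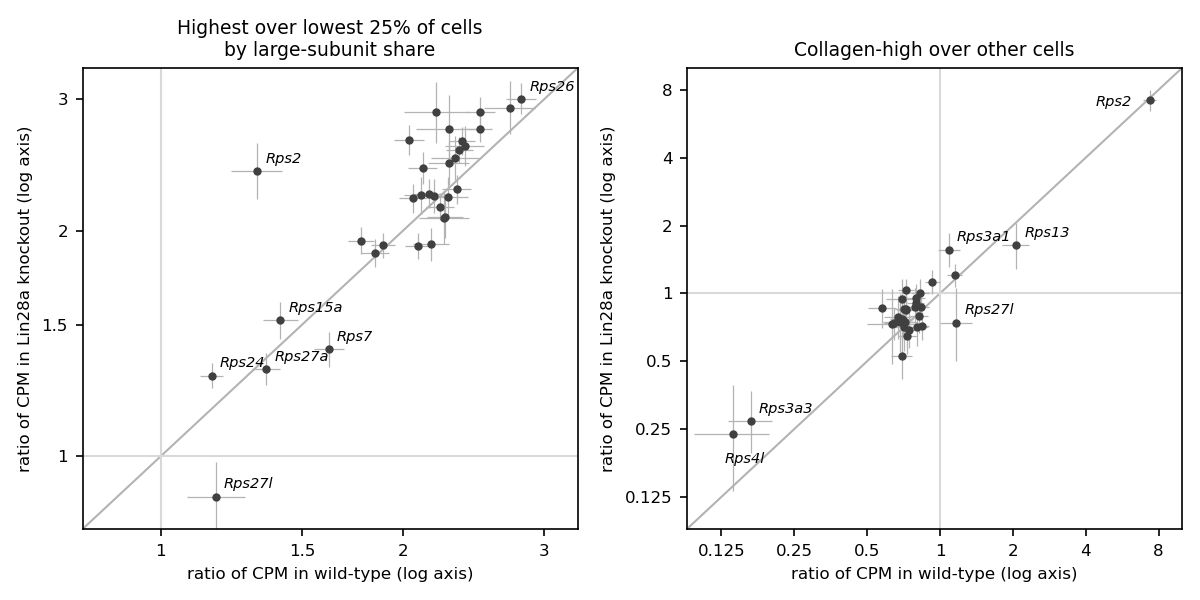
Left, CPM of 33 of the 37 members in the highest over the lowest 25% of cells by large-subunit share; right, CPM in feeder-like (collagen-high) over other cells. Both are plotted for wild-type (x axis) against knockout (y axis) on log axes, with 95% intervals and the line of equal values; *Rps27l* (1.17 and 0.884) lies lowest on the left, and *Rps2* (7.35 and 7.21) and *Rps4l* (0.140 and 0.237) lie at the ends on the right.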

How the data were processed

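Single-cell RNA-seq of 1 wild-type and 1 *Lin28a* knockout inDrop library was analysed. The authors deposited UMI counts that are not normalized, with a row for each gene and a column for each barcode, made with the inDrop pipeline of an earlier publication. The submitters' processing notes name Seurat 2.3.4 and the build mm10, and the aligner is not given in the sources used here. The limits of 500 UMIs and a mitochondrial share of 20% follow the study's methods. The files list 63462 (wild-type) and 58924 (knockout) UMIs as ambiguous between genes.

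GENCODE M21 (GRCm38) supplied gene names for 54079 of 54146 rows, and the coordinates. The members and gene lists were chosen with earlier results of these data known. Full values are given for the 5 highest and 5 lowest members by CPM, the 5 largest and 5 smallest departures (log2 ratio of the gene minus that of the summed module), *Rps27*, *Rps27l*, *Rps4x*, *Rps4l*, the Rps3a genes and *Rps6*. Other members were named after their values were seen. By name, 4 members are not reported here, and they stay in all sums and counts. Lists of 40S assembly factors, 40S-bound factors and large-subunit genes are given as counts and medians.

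Summed UMIs were converted to CPM with exact Poisson intervals, shares had exact binomial (Clopper-Pearson) intervals, and ratios had exact conditional intervals for a ratio of counts. For calls by fold 0.5 was added to each count. PCR and capture are not covered by these intervals. The 6000 UMI limit, the search for copies with BLAST 2.17.0 and the split by snoRNA were added after seeing the data. Doublets were marked with the Scrublet method in scanpy 1.11.5 (27 and 18 cells) and kept in the main values. Simulated counts for 9835 genes held counting error only, with no spread between cells, clones or libraries. In them 96 of 100 genes raised 1.5-fold and 95 of 100 lowered 1.5-fold were recovered. Of 9635 unchanged genes 188 passed the limits for calls. These shares are therefore not error rates for the calls between the libraries.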

Additional observations from a re-analysis of the deposited data

How the results depend on the processing

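The small-subunit ratio of 1.092 stayed above 1 under all 15 alternatives, and 0 members were at 0.8 or less in any of them. Cells of 1000 to 2000 UMIs alone gave 0.819 and the deepest cells 0.986, as shown in the report, and neither was among these alternatives. Ratio, wild-type share and knockout share were 1.114, 5.04% and 5.62% without cells under 5% ribosomal protein UMIs. That setting drops cells by a share that holds the members themselves, so it is no check of the ratio. The values were 1.098, 5.08% and 5.57% with a denominator without mitochondrial genes, and 1.104, 5.63% and 6.21% with one without ribosomal protein genes. With every cell weighing the same they were 1.073, 4.82% and 5.18%, and with no minimum of UMIs 1.081, 4.94% and 5.34%. They were 1.198, 5.02% and 6.02% in cells of 5000 to 10000 UMIs, where 13 members were higher by at least 25% against 4 and the small to large ratio was 1.018. With named pseudogenes added they were 1.120, 6.63% and 7.43%, and the small to large ratio was 1.013. With copies found by sequence, an alternative chosen after seeing the data, they were 1.132, 8.94% and 10.1%, and the small to large ratio was 0.9987, on the other side of 1. Without feeder-like cells the ratio was 1.086 and the wild-type share 5.04%, and with median of ratios scaling, which moved all genes by a factor of 1.035, the ratio was 1.055. A minimum of 1000 UMIs gave shares of 5.02% and 5.49%, and a mitochondrial limit of 10% a knockout share of 5.49%. Where no construction of the alternative shows it, the cause was not tested. *Rps20* ranged from 1.34 to 1.52, *Rps13* from 1.252 to 1.513, *Rps3a2* from 1.333 to 1.505 and *Rps21* from 0.835 to 0.997 over the alternatives. In cells of 10000 UMIs and more *Rps2* went from 0.621 to 1.081 without feeder-like cells, an alternative chosen after seeing the data. No paired analysis was possible because each genotype had 1 library.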
